A study of Mus musculus with 15 samples.

Results

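Fbxo32, Trim63, Foxo1, Foxo3, Bnip3, Bnip3l, Sqstm1, Map1lc3b and Gabarapl1 are 9 genes of muscle protein breakdown, FoxO transcription factors and mitophagy, out of 18350 genes named on the arrays and 14220 genes tested. They were chosen by name, through the accession that each array probe carries, and are measured by 13 probes. The arrays measured heart RNA of C57BL/6 mice, 1 mouse to an array, after weekly intraperitoneal methamphetamine hydrochloride (meth) in phosphate buffered saline (PBS), or PBS alone on the same schedule. The mice started at 8 to 10 weeks of age and were injected for 5 months, with the weekly dose raised by 2 mg to a final 40 mg/kg at week 20. Of the males, 4 had meth and 4 had PBS, with 2 of each coming from trial 1 and 2 from trial 2. Of the females, 4 had meth and 3 had PBS, and the sample titles place them all in trial 1.

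In striated muscle, protein content is set by the balance of synthesis and breakdown. When insulin and growth signals are low, FoxO factors stay in the nucleus and switch on atrogin-1 (Fbxo32) and MuRF1 (Trim63), the muscle ubiquitin ligases that mark proteins for the proteasome, along with genes of autophagy. Mitophagy is the removal of mitochondria by autophagy. It uses receptors in the outer mitochondrial membrane (Bnip3, Bnip3l), the cargo adaptor p62 (Sqstm1) and ATG8-type proteins of the autophagosome membrane (Map1lc3b, Gabarapl1).

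The promoter table of RefSeq (build GRCm38.p6) held 7 of the 9 genes, and 2 stretches of it are shown because they hold the letters that FoxO factors and E-box factors are known to bind. Capitals mark the match, and both stretches lie upstream of the transcription start.

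Trim63, chr4:134314896-134314965, plus strand: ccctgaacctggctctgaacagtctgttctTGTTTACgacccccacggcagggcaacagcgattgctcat
Bnip3, chr7:138909575-138909644, minus strand: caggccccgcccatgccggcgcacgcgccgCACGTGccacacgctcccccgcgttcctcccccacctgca

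In the Trim63 stretch the FoxO motif GTAAACA lies on the opposite strand and begins 194 bases before the start. The window from 250 bases before to 50 after the start held this motif, on either strand, in 3.65% of 32851 promoters and in Trim63 alone among the 7. The E-box CACGTG, bound by TFEB and other basic helix-loop-helix factors, begins 108 bases before the Bnip3 start and was in 7.15% of promoters. The longer TFEB letters TCACGTGA were in 0.974% of promoters and in none of the 7. The hypoxia core ACGTG, which lies inside the E-box, was in 19.6% of promoters and in Bnip3 alone of the 7. The glucocorticoid receptor core AGAACA was in 19.0% of promoters and in Trim63 alone of the 7. The promoters of Foxo1, Foxo3, Sqstm1, Map1lc3b and Gabarapl1 held none of these letters in this window. A match describes sequence and is not a measured binding site.

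By limma with Benjamini-Hochberg adjustment over 28358 probes, 1 of 9 genes passed an adjusted p of 0.05 in males, where Foxo3 was higher with meth, against 1.34% of all genes tested. In females 0 of 9 passed, against 0.443% of all genes. At an unadjusted p under 0.05 the counts were 3 of 9 in males, against 13.2% of all genes, and 2 of 9 in females, against 7.82%. The median log2 difference of the 9 genes was 0.07 in males and 0.06 in females, beside -0.02 and 0.03 for all genes tested. In males 2 of 9 genes (Fbxo32 and Foxo3) had every meth value above every PBS value, where 11.6% of all genes were separate in either direction. In females this held for 2 of 9 (Bnip3 and Bnip3l), where the share of all genes was 7.01%.

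**Figure D1:**
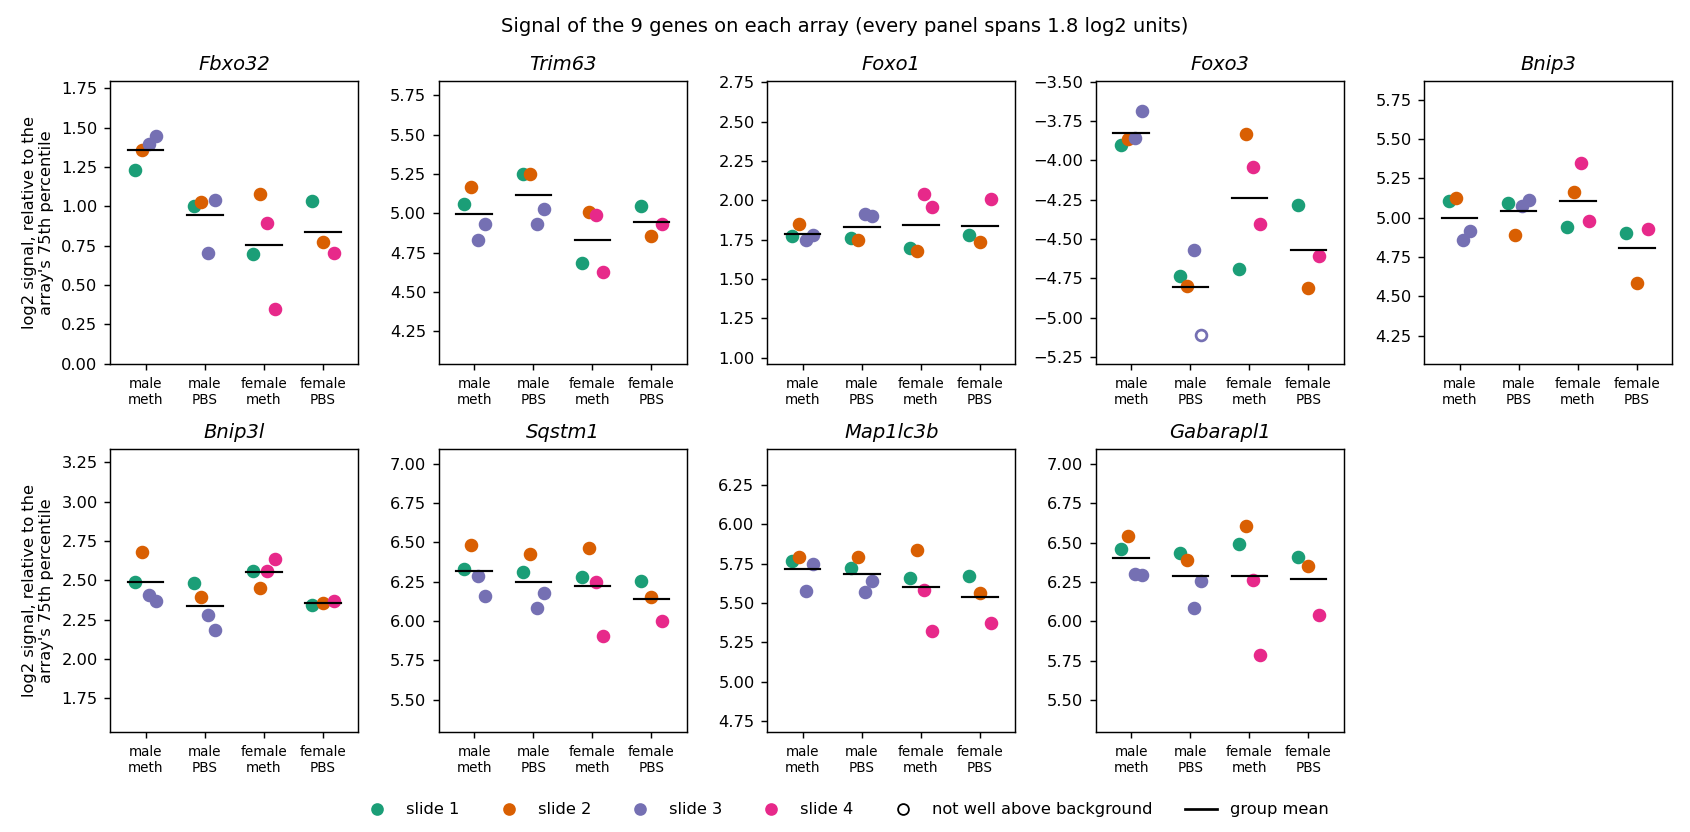
Log2 signal of each gene on each of the 15 arrays, relative to the 75th percentile of the array, with 1 panel per gene, arrays grouped by sex and treatment and coloured by slide; black lines are group means and an open point was not well above background. In males the meth and PBS points do not overlap for Foxo3 and Fbxo32, in females for Bnip3 and Bnip3l, and female meth replicate 4 (slide 4) is the lowest of all 15 arrays for Fbxo32 and Gabarapl1.

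Signals below are log2 values relative to the 75th percentile of their own array, so that 0 is the brightness that 75% of probes do not exceed. A level of 1 probe cannot be set against that of another. In whole-heart RNA, fewer cells of a type and less RNA per cell cannot be told apart. The 12 arrays of slides 1, 2 and 3 had a 75th percentile of 323 to 424, and it was 461 to 618 for slide 4, which holds female meth replicates 3 and 4 and female PBS replicate 3. Every slide held both treatments. All 10 cardiomyocyte markers were above background in every group, and 0 of 10 passed the test in either sex, with a summed level of 3150 to 4573 times the 75th percentile over the 15 arrays.

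Of the FoxO factors, Foxo3, whose product switches on both muscle ligases and autophagy genes in skeletal muscle, gave the 1 call. The Foxo3 signal was -3.90 and -3.87 in the trial 1 and -3.86 and -3.68 in the trial 2 males given meth. In males given PBS it was -4.74 and -4.80 in trial 1 and -4.57 and -5.11 in trial 2, so the lowest meth value exceeded the highest PBS value. The log2 difference was 0.98 ± 0.18 (SE), which is 1.97-fold with a 95% interval of 0.58 to 1.37 on the log2 scale (limma adjusted p = 0.0259). An exact permutation test, two-sided, that regrouped the 8 arrays without regard to trial gave p = 0.0286, the smallest that 4 against 4 allows. It uses the same values as the call and is not separate support for it. The log2 difference was 0.88 within trial 1 and 1.07 within trial 2.

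The Foxo3 probe is dim. Its background-subtracted intensity was 22.5 to 26.5 in males given meth and 9.27 to 16.9 in males given PBS. In 1 of the 4 PBS males, trial 2 replicate 2, the spot was not well above background. With normexp background correction, which adds an offset of 50 to every signal, the log2 difference in males was 0.21 (limma adjusted p = 1.00). That offset exceeds the intensity of the Foxo3 probe on every array, and its part in the lower value was not tested. The call was kept under 17 of 31 other settings that could test the probe, 7 of which left out a female array, and leaving out a single male array ended it for each of the 8 except trial 2 PBS replicate 1 (adjusted p = 0.0461 without it, and 0.0529 to 0.0903 without any of the others).

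**Figure D2:**
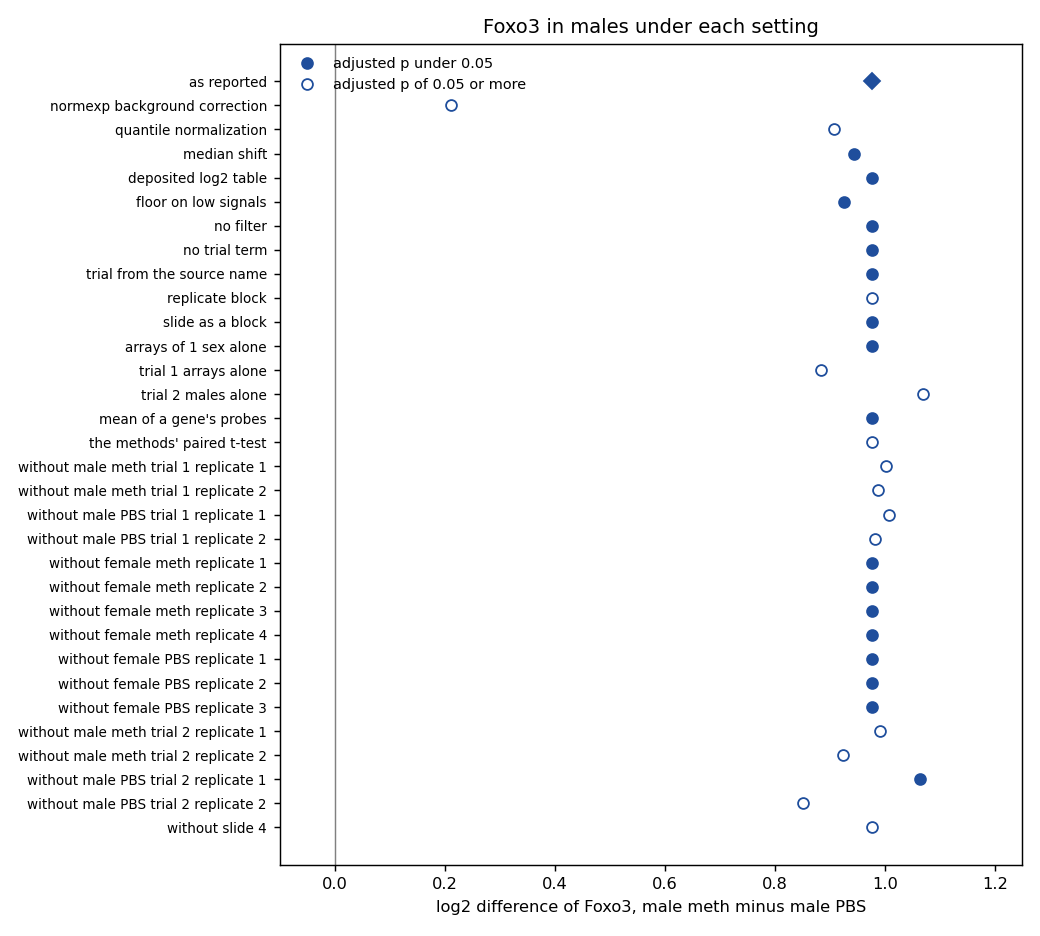
Log2 difference of Foxo3 between males given meth and males given PBS (horizontal axis) as reported and under 31 other settings (vertical axis), with filled points where the adjusted p was under 0.05. The difference stays between 0.85 and 1.07 except with normexp background correction, where it is 0.21. That setting adds an offset of 50, above the intensity of the probe on every array. Of the 31 other points, 17 are filled.

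In females the Foxo3 signal with meth was -4.69, -3.83, -4.04 and -4.40 in replicates 1 to 4, and with PBS it was -4.28, -4.81 and -4.61. The groups overlapped, with a log2 difference of 0.33 ± 0.20 (SE; interval -0.10 to 0.75; limma adjusted p = 0.606). Within slides, which here hold 1 or 2 meth arrays and 1 PBS array, it was -0.40 on slide 1, 0.98 on slide 2 and 0.39 on slide 4. Over 30 other settings the female difference ranged from 0.19 to 0.48. It was 0.19 without female meth replicate 2 and 0.20 without female PBS replicate 2. The male response exceeded the female one by 0.65 ± 0.27 on the log2 scale, and this difference did not pass (limma adjusted p = 0.552). With normexp background correction and its offset of 50 it was -0.0083. Foxo1 is the other main FoxO factor of muscle. Its signal was 1.96 to 2.04 on the 3 arrays of slide 4, above the 1.68 to 1.92 of the other 12, and its log2 difference was -0.04 (interval -0.25 to 0.16) in males and 0.00 (interval -0.22 to 0.23) in females.

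Neither muscle ligase passed the threshold in either sex. Fbxo32 in males given meth was 1.23 and 1.36 in trial 1 and 1.39 and 1.45 in trial 2. With PBS it was 1.00 and 1.03 in trial 1 and 0.71 and 1.04 in trial 2, below every meth array. The log2 difference was 0.41 ± 0.14 (SE), or 1.33-fold, and did not pass over all probes (interval 0.10 to 0.73; limma adjusted p = 0.242). It was 0.28 within trial 1 and 0.55 within trial 2.

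In females Fbxo32 was 0.70, 1.08, 0.89 and 0.35 with meth and 1.04, 0.77 and 0.70 with PBS. These groups overlapped, with a log2 difference of -0.08 (interval -0.42 to 0.26), and the lowest value belongs to meth replicate 4. The male and female responses differed by 0.50 ± 0.21 on the log2 scale, which did not pass (limma adjusted p = 0.562). Over all 9 genes, 0 passed for the difference between the sexes, against 0.155% of all genes tested, and 2 (Foxo3 and Fbxo32) had an unadjusted p under 0.05, against 8.12%.

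Trim63, whose product acts on thick-filament proteins, was bright on every array. In males it was 5.06 and 5.17 (trial 1) and 4.83 and 4.94 (trial 2) with meth, and 5.25 and 5.25 (trial 1) and 4.93 and 5.03 (trial 2) with PBS. In females it was 4.68, 5.01, 4.99 and 4.63 with meth and 5.05, 4.86 and 4.93 with PBS. The groups overlapped in both sexes. The log2 difference was -0.12 in each, with an interval of -0.32 to 0.08 in males and -0.34 to 0.10 in females. Among PBS hearts, Trim63 was 0.29 ± 0.11 higher in males than in females with the trial in the fit (limma adjusted p = 0.241), and 0.17 higher without the trial term, with overlapping groups. It was 0.16 with quantile normalization. Over 28 other settings it ranged from 0.16 to 0.42, and it passed under none (lowest limma adjusted p = 0.138). No gene of the 9 passed between the sexes in PBS hearts, against 0.549% of all genes, and 1, Trim63, had an unadjusted p under 0.05, against 15.3%.

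**Figure D3:**
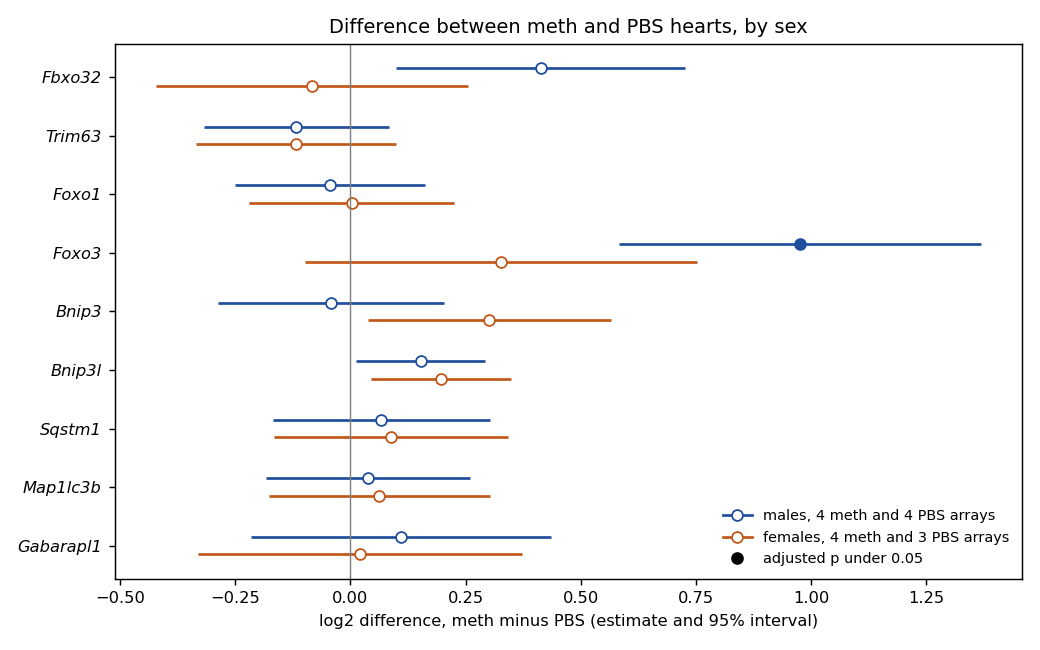
Log2 difference between meth and PBS hearts (horizontal axis) for each of the 9 genes (vertical axis), with 95% intervals from limma, for males (blue) and females (orange). Foxo3 in males at 0.98 is the 1 filled point (adjusted p under 0.05), and Trim63 has nearly equal estimates in the sexes.

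The mitochondrial receptors Bnip3 and Bnip3l gave their separate groups in females. Bnip3 was 4.94, 5.16, 5.35 and 4.98 with meth and 4.90, 4.59 and 4.93 with PBS. The groups did not overlap, with 4.94 and 4.93 as the nearest pair, and the log2 difference was 0.30 ± 0.12 (interval 0.04 to 0.57; limma adjusted p = 0.358). It was 0.04 within slide 1, 0.58 within slide 2 and 0.23 within slide 4, and 0.19 without female PBS replicate 2. In males Bnip3 was 5.10 and 5.13 in trial 1 and 4.86 and 4.91 in trial 2 with meth. With PBS it was 5.09 and 4.89 in trial 1 and 5.07 and 5.11 in trial 2, with a log2 difference of -0.04 (interval -0.29 to 0.20). The trials gave opposite signs, 0.12 in trial 1 and -0.21 in trial 2.

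Bnip3l, also called NIX, was 2.56, 2.45, 2.56 and 2.64 in females given meth and 2.34, 2.36 and 2.37 in females given PBS. In males it was 2.49 and 2.68 (trial 1) and 2.41 and 2.37 (trial 2) with meth, and 2.48 and 2.39 (trial 1) and 2.28 and 2.19 (trial 2) with PBS. The female groups did not overlap and the male groups did. The log2 difference was 0.20 ± 0.07 in females (interval 0.04 to 0.35; limma adjusted p = 0.278) and 0.15 ± 0.06 in males (interval 0.01 to 0.29; adjusted p = 0.344), and neither passed. It was above 0 within both male trials and all 3 female slides, from 0.09 to 0.23. The second Bnip3l probe gave 0.17 ± 0.10 in males and 0.10 ± 0.11 in females, with overlapping groups in both.

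The adaptor and the autophagosome proteins passed the threshold in neither sex. For Sqstm1, Map1lc3b and Gabarapl1 the log2 difference lay between 0.04 and 0.11 in males and between 0.02 and 0.09 in females, the meth and PBS arrays overlapped in both sexes, and every 95% interval included 0. The intervals reach from -0.18 to 0.26 for Map1lc3b in males at the narrow end and from -0.33 to 0.37 for Gabarapl1 in females at the wide end, so differences within these bounds could not be told from 0. Over the 15 arrays, Sqstm1 ranged from 5.90 to 6.49, Map1lc3b from 5.32 to 5.83 and Gabarapl1 from 5.78 to 6.61. Female meth replicate 4 was the lowest array for Sqstm1, Map1lc3b, Gabarapl1, Fbxo32 and Trim63. The 4 further probes of Foxo1, Bnip3l, Map1lc3b and Gabarapl1 had log2 differences from -0.02 to 0.19 in males and from -0.02 to 0.13 in females, all with overlapping groups and none past the threshold.

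Other signals moved with treatment on these arrays. Of the airway epithelium markers, 7 of 8 tested were higher in males given meth, with a summed level of 35.2 to 171 times the 75th percentile against 1.68 to 2.23 in males given PBS, where Bpifa1, Foxj1, Epcam, Cdh1 and Muc1 were above background on no array. In females 1 of 8 was higher, and the sums were 2.55 to 5.83 with meth and 3.25 to 4.91 with PBS. Of the circadian clock genes, 6 of 9 tested were higher and 1 was lower in males, and 2 were higher and 1 lower in females, with summed levels of 81.5 to 95.04 with meth against 24.2 to 61.2 with PBS in males and 69.6 to 82.0 against 33.2 to 43.2 in females. Of the fat markers 1 of 6 tested was higher in males (Cfd, the adipokine adipsin) and 0 of 6 passed in females. The log2 difference was above 0 for 5 of the 6 in males and for all 6 in females. The summed level of the 7 on the array was 56.8 to 220 with meth against 44.8 to 121 with PBS in males, with overlap. In females it was 88.4 to 125 against 50.9 to 66.3, without overlap. Of skeletal muscle markers 1 of 10 was lower in males (Tnni2, fast troponin I, with a log2 difference of -0.64). The skeletal muscle markers did not share a direction in males: 3 of 10 had a log2 difference above 0, among them Pvalb, the calcium buffer parvalbumin, at 1.15 with every meth array above PBS (limma adjusted p = 0.0700). The part of these signals in the differences above was not tested.

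Of 153 further genes of related pathways in 6 lists, 147 were tested. In males 1 passed, or 0.68% against 1.34% of all genes tested, and in females 2 passed, or 1.36% against 0.443%. All were higher with meth. The median log2 difference of these genes was -0.01 in males and 0.06 in females. Trib1, a pseudokinase that brings substrates to a ubiquitin ligase and is listed here with the FoxO targets, was the 1 gene past the threshold in both sexes. Its signal in males was 0.52 to 0.83 with meth and 0.21 to 0.36 with PBS, a log2 difference of 0.38 ± 0.08 (limma adjusted p = 0.0404; 0.20 with trial 1 arrays alone and 0.55 with trial 2 males alone). In females it was 0.81 to 0.94 with meth and 0.33 to 0.46 with PBS, a log2 difference of 0.49 ± 0.08 (adjusted p = 0.0242, and 0.118 with the replicate block). For Trib1 the threshold was passed under 10 of 32 other settings in males and 20 of 31 in females. With a single array left out, the male call was lost for 12 of the 15 arrays (all but male meth trial 1 replicate 1 and female meth replicates 2 and 4; adjusted p 0.0506 to 0.145). The female call was lost for 5 of the 15 (female meth replicates 3 and 4 and the 3 female PBS arrays; adjusted p 0.0581 to 0.116).

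The remaining call was Pik3r1, a regulatory subunit of the PI3-kinase that acts above FoxO. In females it was 1.38 to 1.59 with meth and 1.03 to 1.17 with PBS, a log2 difference of 0.37 ± 0.08 (limma adjusted p = 0.0459, and 0.0924 with the replicate block), and the call held under 5 of 31 other settings. The difference was 0.15 with normexp background correction and 0.19 as the mean of the probes of the gene. It was lost when any 1 of the 15 arrays was left out (adjusted p 0.0524 to 0.207). In the list of muscle ubiquitin ligases and proteasome genes 0 of 22 passed in either sex, with medians of -0.07 in males and 0.05 in females. In males the arrays of 2 of 22 did not overlap, both lower with meth, beside 11.6% of all genes separate in either direction. In females this held for 0 of 22, beside 7.01%. Cavin4, a caveolar protein listed beside the ligases, had the wider male difference, -0.30 ± 0.10 (limma adjusted p = 0.228). The ligase Fbxo30 gave -0.28 ± 0.12 in males (adjusted p = 0.329), and 0.20 ± 0.13 in females with overlapping groups (adjusted p = 0.632).

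Among FoxO factors and targets 1 of 22 passed in each sex, Trib1, with medians of 0.06 and 0.14. In the mitophagy list 0 of 25 passed in either sex. Its medians were -0.09 in males and 0.06 in females. In males the arrays of 5 of 25 did not overlap, all lower with meth, beside 11.6% of all genes separate in either direction. In females this held for 1 of 25, higher with meth, beside 7.01%. The widest of the separate male differences was that of the mitochondrial fission enzyme Dnm1l, -0.19 ± 0.15 (limma adjusted p = 0.658). In core autophagy 0 of 28 passed, with Atg101, a subunit of the ULK1 starter complex, at 0.14 ± 0.06 in females (adjusted p = 0.366). Of 20 lysosome and TFEB genes none passed, and the lysosomal membrane protein Lamp1 was at 0.18 ± 0.06 in females (adjusted p = 0.261), and at -0.010 with normexp background correction. In growth signalling above FoxO 0 of 30 passed in males and 1, Pik3r1, in females.

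**Figure D4:**
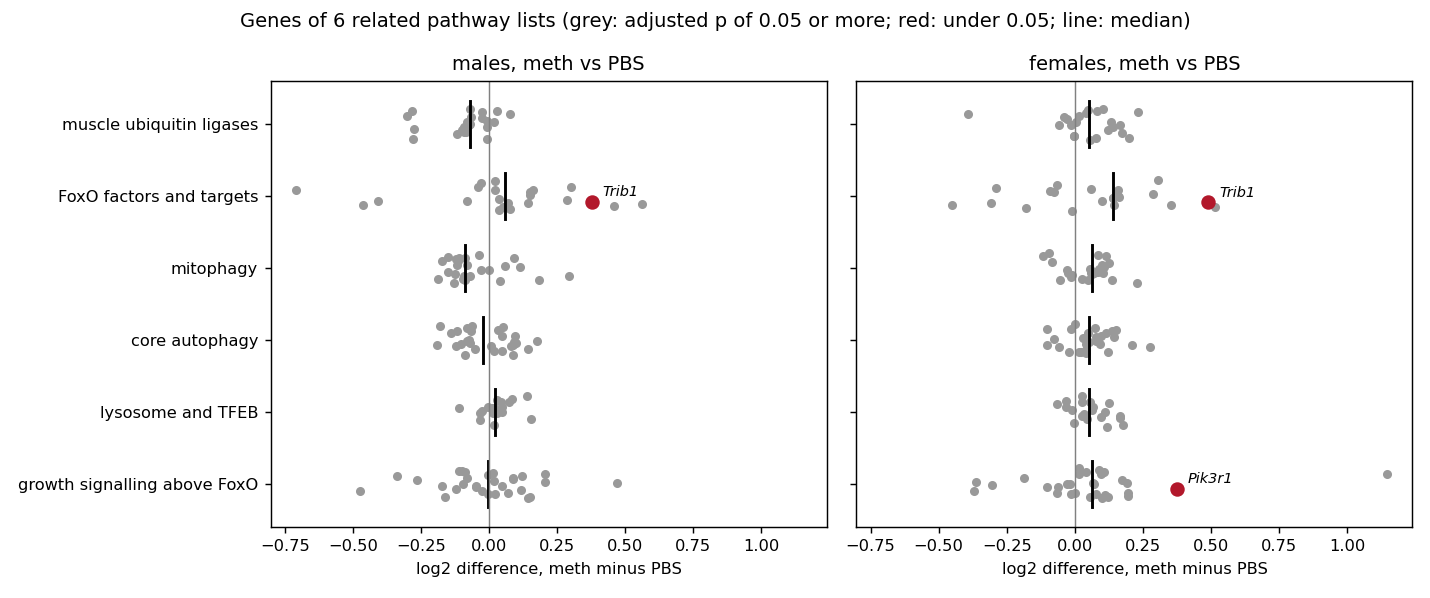
Log2 difference between meth and PBS hearts (horizontal axis) of each tested gene in 6 pathway lists (vertical axis), in males (left) and females (right), with the list median as a black line. The red points with an adjusted p under 0.05 are Trib1 in both sexes and Pik3r1 in females; all list medians lie between -0.09 and 0.14.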

How the data were processed

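Heart RNA of 15 mice was labelled with Cy3 and hybridised by the authors to Agilent 4x44K mouse arrays of 1 colour. The authors extracted spot intensities with Agilent Feature Extraction (version 9.1 per the submitters' processing notes, 10.5.1.1 per the file headers), and these deposited intensities are background-subtracted but not scaled between arrays. The deposited table of log2 values equals the log2 signal plus a constant for each array. It was used as an alternative.

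The members, lists and tests were chosen with earlier results of these data known. Control spots were left out, outlier-flagged spots were set to missing, and spots of a probe were averaged. Log2 signals were shifted by the 75th percentile of each array. Of 41174 probes, 28358 were well above background on at least 3 arrays and were tested. Symbols came from probe accessions through RefSeq, and a gene with several probes is represented by the one brightest on average. All 9 members passed this filter, and 1 further gene of the set is not reported here. All 9 were named, and of each list the genes past the threshold. Where none passed, the 1 with the largest log2 difference among genes whose arrays did not overlap was named. Fbxo30 was named in addition to this rule.

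The 4 groups and the trial entered a single limma 3.58.1 fit (R 4.3.3, lmFit and eBayes), tested on simulated data. P-values are two-sided and adjusted by Benjamini-Hochberg over all probes, with a threshold of 0.05. Pairing by replicate number was examined by correlating, between meth and PBS arrays of one number, how each array departs from the mean of its group. In females the correlation was 0.30, 0.44 and 0.66. Arrays of one number shared a slide in both sexes. The female group means span slides, so pairing by number and by slide cannot be told apart there. In males the check gives a single correlation per trial, -0.09 in trial 1 and 0.01 in trial 2. The 3 female arrays on slide 4 carry trial 1 in the title and trial 2 in the source name. Alternatives covered background, scaling, filter, trial, block, samples and test. The number of arrays limits the precision. Plots were drawn with matplotlib.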

Additional observations from a re-analysis of the deposited data

Results flagged for a closer look

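In groups of 4 arrays, the lowest or highest array was compared with its nearest neighbour over the whole range of the group. Of the 27 such groups over the 9 genes, 2 had an array far from the others by Dixon's ratio, and chance flags about 1 group in 20. Fbxo32 in males given PBS was 0.71 (log2 signal) in trial 2 replicate 1, against 1.00 to 1.04 in the other arrays of that group. Bnip3 in males given PBS was 4.89 in trial 1 replicate 2, against 5.07 to 5.11 in the others. The cause of either value was not tested.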

How the results depend on the processing

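Of the counts of genes past the threshold, those for females, for the difference between the sexes and for PBS hearts were 0 under every setting that could be fitted. The count in males went from 1 to 0 with normexp background correction, quantile normalization, the filter on all 15 arrays (which drops the Foxo3 probe), the replicate block, trial 1 arrays alone, trial 2 males alone and the methods' paired t-test. It was also 0 without slide 4, a setting chosen after seeing the data, and between 0 and 1 when 1 array was left out. The normexp offset of 50 exceeds the intensity of the Foxo3 probe on every array, and 1 trial alone leaves 4 male arrays. Whether either ended the call was not tested, and neither was any other cause. With the replicate block, Foxo3 kept its log2 difference of 0.98 with a limma adjusted p of 0.117. In males this block joins meth and PBS arrays of one number, which also share a slide.

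No recomputed value past the threshold changed sign. The differences of marker and clock genes, of the further probes and of Fbxo30 were not recomputed. Over all 9 genes in all comparisons and the list genes named by the rule, 93 of 1454 recomputed log2 differences changed sign, none of them past the threshold. Of the log2 differences given in the report, 28 were recomputed, and they account for 870 of these recomputations and 31 of the sign changes. Foxo1 in females, 0.00 as reported, was -0.0099 with normexp, -0.035 with quantile normalization, -0.024 with the trial of the source name, -0.045 with the slide as a block, -0.0066 with the mean of probes, -0.070 without slide 4, and -0.035 with the replicate block and the paired t-test. Under those 2 paired settings Fbxo32 in females was 0.052. With normexp the male minus female difference of Foxo3 was -0.0083 and Lamp1 in females -0.010. With quantile normalization Bnip3 in males was 0.021, and in females Sqstm1 was -0.0026, Map1lc3b -0.0077 and Gabarapl1 -0.075. Within trial 1, Foxo1 in males was 0.057 and Bnip3 0.12. When 1 array was left out, Bnip3 in males ranged from -0.12 to 0.0022 and Map1lc3b in males from -0.00037 to 0.068. In females the ranges were -0.19 to 0.052 for Fbxo32, -0.063 to 0.085 for Foxo1, -0.018 to 0.15 for Map1lc3b and -0.093 to 0.19 for Gabarapl1. The replicate block could not be fitted for PBS males against PBS females, since each block lies within a sex. In females the block ended the Trib1 and Pik3r1 calls; none of the 9 genes had a female call to lose.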
